A study of Mus musculus with 5 samples.

Results

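The matrix metalloproteinases examined here were 10 genes (Mmp2, Mmp3, Mmp7, Mmp9, Mmp10, Mmp11, Mmp12, Mmp13, Mmp14 and Mmp19) taken by their symbols from a table of 24527 mouse genes, and all 10 had enough reads to be tested. They were set out by the cells in which each is best known, as macrophage (Mmp9 and Mmp12), stromal (Mmp2, Mmp3, Mmp11, Mmp13, Mmp14 and Mmp19) and epithelial (Mmp7 and Mmp10) members. RNA came from prostate tumors of 5 TripleTg mice, 3 castrated and 2 intact, each library from a separate animal of a mixed C57BL/6 and C3H SCID background. Mice of both groups carried a human HGF transgene (hHGFtg) expressed throughout the body, together with a human MET transgene (H11 hMET/+) and an allele giving stabilized β-catenin (Ctnnb1 L(Ex3)/+) that were switched on only where the probasin promoter drives Cre (PB Cre4), in prostate epithelium. Castration was done at 4 months of age and tissue of both groups was taken at 8 months, so that the comparison asked how the tumor transcriptome differed after androgen withdrawal in animals of the same genotype. Reads per gene were counted in ribosomal RNA-depleted libraries, with total counts of 28015507, 18951782 and 20492061 in castrated replicates 1, 2 and 3, and of 21560355 and 22853501 in intact replicates 1 and 2. Values are given as CPM, counts relative to the library's total after TMM scaling, and levels of different genes are compared only per length, as TPM.

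Matrix metalloproteinases are zinc-dependent proteases that cut collagens, elastin, laminins and many non-matrix proteins such as growth factors, cytokines and cell adhesion molecules. Most are secreted as inactive proenzymes and are activated outside the cell by plasmin or by another metalloproteinase, while membrane-anchored members such as Mmp14 are activated by furin on the way to the cell surface. Their activity is held in check by the tissue inhibitors of metalloproteinases (TIMPs) and by the membrane protein Reck, and their mRNA levels are known to respond to AP-1 and ETS transcription factors, to inflammatory cytokines and, for some members, to β-catenin. In tumors, much of the metalloproteinase mRNA is made by fibroblasts and by infiltrating macrophages and neutrophils, with Mmp7 being the member best known from epithelial cells themselves.

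The libraries differed within their groups in ways that bear on every value below. Castrated replicate 3 held abundant liver mRNA, with 284121 counts of Alb (albumin) and 33864 counts of Apoa1 (an apolipoprotein), against at most 1393 and 137 counts in any other library; these liver genes were chosen after their values were seen. Adipocyte mRNA was present in castrated replicates 2 and 3, where Adipoq (adiponectin) stood at 68.8 and 68.3 CPM, compared to 0.523 CPM in castrated replicate 1 and 0 and 0.093 CPM in the intact replicates. Intact replicate 2 alone held mRNA of secretory prostate epithelium in quantity, with 28976 counts of the secretory transglutaminase Tgm4 against at most 12 elsewhere. Of the other prostate secretory genes, Msmb had 0 counts in all 5 libraries and Pbsn, whose promoter drives Cre in these mice, had 13, 0, 5, 0 and 112 counts in castrated replicates 1 to 3 and intact replicates 1 and 2. The defining secretory markers of the labelled tissue were therefore absent or nearly so in 4 of the 5 libraries. In bulk tissue, fewer cells of a type and less RNA per cell cannot be told apart.

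Of the 10 members, 5 lie together on chromosome 9 and are shown with their promoters because they share a short motif there but had unlike mRNA levels. By the mm10 coordinates of the count table, all 5 on the plus strand, Mmp13 spans bases 7272514 to 7283333, Mmp12 bases 7344397 to 7360461, Mmp3 bases 7445822 to 7455974, Mmp10 bases 7502342 to 7510242 and Mmp7 bases 7692090 to 7699585. The other members lie apart, with Mmp9 on chromosome 2 (164948220 to 164955850), Mmp2 on chromosome 8 (92827297 to 92853421), Mmp11 and Mmp19 on chromosome 10 (75923222 to 75932502 and 128790910 to 128800830) and Mmp14 on chromosome 14 (54431598 to 54442456). RefSeq promoter windows of 300 bases, ending shortly after the transcription start (build GRCm38.p6), were at hand for 7 of the 10 members and were searched on both strands for short motifs. The AP-1 letters TGANTCA, which read the same on either strand, were found in a window of all 5 members of the chromosome 9 cluster. They were found in 7.81% of 32851 promoters of all genes, a share counted by window, whereas the members were counted by gene. They were not found in the windows of Mmp11 and Mmp14. Over the whole family, 8 of the 10 genes of that cluster with a window held the letters, all but Mmp8 and Mmp27, compared to 0 of 8 family genes elsewhere. The 100 bases before the start are printed below on the plus strand, with the AP-1 letters in capitals. For Mmp12, which has 2 annotated starts, they are those before the second start, at base 7347374, since the window of the first start did not hold the letters. For Mmp7 they are those before the first start, and a later window, at bases 7692091 to 7692390, did not hold the letters.
Mmp13, chr9:7272414-7272513: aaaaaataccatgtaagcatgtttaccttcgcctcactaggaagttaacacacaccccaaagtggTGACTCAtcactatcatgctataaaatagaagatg
Mmp12, chr9:7347274-7347373: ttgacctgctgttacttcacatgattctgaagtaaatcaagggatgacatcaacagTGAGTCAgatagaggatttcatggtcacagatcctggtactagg
Mmp3, chr9:7445722-7445821: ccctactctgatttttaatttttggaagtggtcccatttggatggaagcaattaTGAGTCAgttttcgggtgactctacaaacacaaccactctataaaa
Mmp10, chr9:7502242-7502341: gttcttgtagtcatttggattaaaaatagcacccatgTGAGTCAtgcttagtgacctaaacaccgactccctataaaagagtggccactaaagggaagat
Mmp7, chr9:7691990-7692089: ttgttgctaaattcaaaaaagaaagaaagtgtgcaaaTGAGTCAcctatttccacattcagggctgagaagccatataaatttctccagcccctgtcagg

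The match began 35 bases before the start in Mmp13, 44 in Mmp12, 46 in Mmp3, and 63 in both Mmp10 and Mmp7. The letters TATAAA followed closer to the start in Mmp13, Mmp3, Mmp10 and Mmp7, at 16, 7, 29 and 26 bases before it, and were found in 13.6% of all promoters. The ETS letters AGGAAG, found in 35.4% of all promoters, were in the windows of Mmp13, Mmp12, Mmp3, Mmp7 and Mmp14. The TCF letters CTTTGAT, found in 3.73% of all promoters, were among the members only in the windows of Mmp7, just after its first start. These matches describe the sequence and do not show that a factor was bound.

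The study's threshold was a log2 fold change beyond 1 in either direction with an adjusted p under 0.05. Between castrated and intact mice, none of the 10 members passed it, nor did any of the 14612 genes tested (0%). The test was the quasi-likelihood test of edgeR on counts, with Benjamini-Hochberg adjustment over all tested genes. The paper, which states TPM as the input to its edgeR test, did report differentially expressed genes between these groups. At an unadjusted p under 0.05 with the same fold threshold, 3 members were higher in castrated mice, Mmp9, Mmp12 and Mmp19, while 0 were lower, beside 7.66% of all tested genes that were higher and 3.26% that were lower. The count was 0 without intact replicate 2, 1 without castrated replicate 2 and 1 in limma voom. In 4 members, Mmp9, Mmp11, Mmp13 and Mmp19, the 3 castrated values all lay above both intact values, which 17.0% of all tested genes did; in 0 members did they all lie below, as in 16.1% of all tested genes. With 3 samples against 2, a one-sided exact permutation test of a single gene cannot give a p below 0.1. The median log2 fold change was 3.04 for the macrophage members, 0.81 for the stromal members and −0.39 for the epithelial members, beside −0.03 for all tested genes. The macrophage median was 1.88 without castrated replicate 2, the stromal median 1.84 without intact replicate 1, and the epithelial median, which covers 2 genes of opposite sign, turned to 1.01 without intact replicate 2, 0.09 in limma voom and 0.16 in a fit blocked on replicate number. The classes were not tested against each other. DESeq2, run on the same counts, called 989 of the 14612 genes, with Mmp12 as the only member among them. Of the 28 genes named below by their unadjusted change from the marker and pathway lists, DESeq2 called 21. They were spread over macrophage, fibroblast, smooth muscle, adipocyte, endothelial and mast cell markers and included Mmp23, Reck, Adamts5 and Etv1. Since the 28 genes were chosen for their change in the same counts, the number called among them is no separate evidence.

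**Figure D1:**
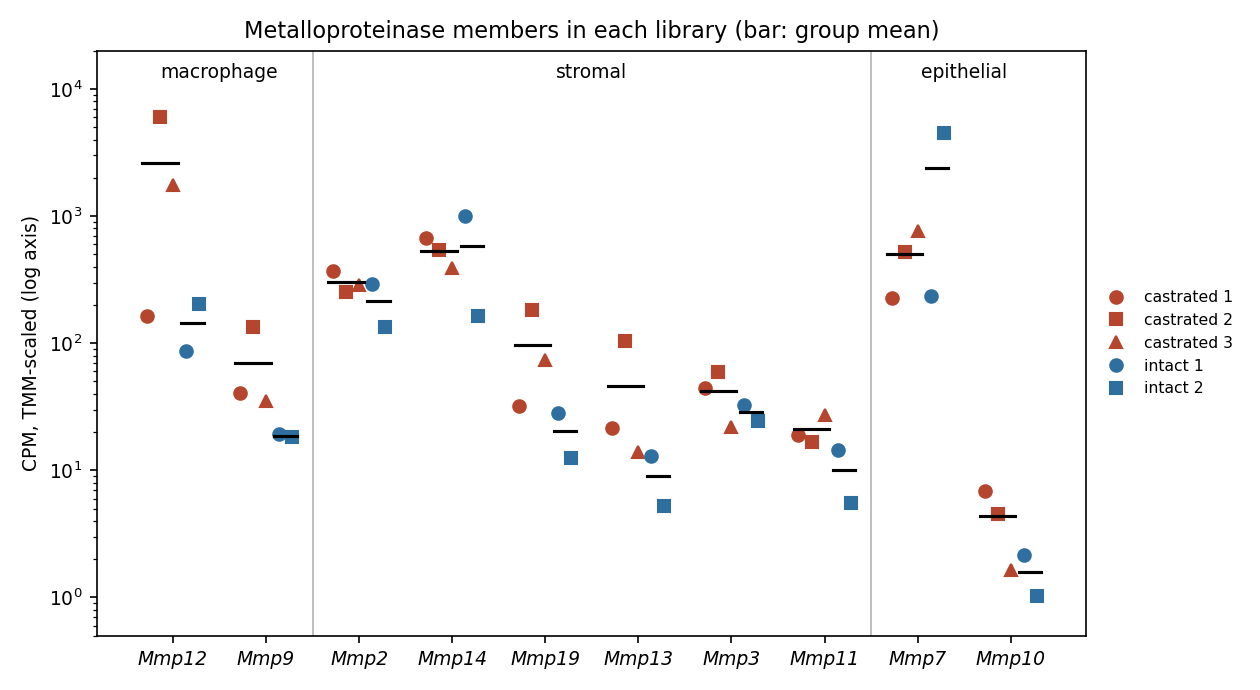
CPM of each member (log axis) in the 3 castrated (red) and 2 intact (blue) libraries, with symbols for the replicates, black bars for the group means, and members set out by class. Mmp12 ranged from 86.1 to 5971 CPM and was highest in castrated replicate 2, while Mmp7 was highest in intact replicate 2 at 4509 CPM.

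Mmp12 was the most uneven member among the castrated mice, with a 36.4-fold range. This gene, the macrophage elastase, stood at 164, 5971 and 1756 CPM in castrated replicates 1, 2 and 3, and at 86.1 and 203 CPM in intact replicates 1 and 2. Castrated replicates 2 and 3 lay far above both intact mice, but castrated replicate 1 lay between them, so the groups overlapped in CPM. In TPM they did not, narrowly, at 104 in castrated replicate 1 and 102 in intact replicate 2. The mean was 2631 ± 3001 CPM (SD, n = 3) in castrated and 145 ± 82.6 CPM (SD, n = 2) in intact mice, a log2 fold change of 4.19 ± 1.59 (SE; unadjusted p = 0.0442 and adjusted p = 0.327 in edgeR's quasi-likelihood test). DESeq2 gave a fold change of the same size for Mmp12 with an adjusted p of 0.012, the lowest of 16 alternatives, over which it ran up to 0.748. Without castrated replicate 2 the log2 fold change was 2.75, and without intact replicate 2 it was 4.89. In castrated replicate 2, Mmp12 alone took 0.587% of all counts, against 0.0168% in castrated replicate 1.

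Mmp9, gelatinase B, made by macrophages and neutrophils, stood at 40.3, 135 and 34.8 CPM in the castrated replicates and at 19.3 and 18.2 CPM in the intact replicates. All castrated values were above the intact values, which differed little from each other. The log2 fold change was 1.90 ± 0.69 (SE; unadjusted p = 0.0369, adjusted p = 0.316). It was 1.01 without castrated replicate 2, where Mmp9, like Mmp12, was highest.

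The genes whose values over the 5 libraries were most like those of Mmp12, by the smallest root mean square difference of centred log2 CPM, were Lyz1 (0.31), Stap1 (0.42), Acvr1c (0.44), Tbx5 (0.50) and Gpnmb (0.54). Gpnmb, a glycoprotein known from lipid-laden macrophages, was the least alike of these 5. It stood at 306, 7890 and 3196 CPM in castrated replicates 1 to 3 and at 353 and 467 CPM in the intact mice. Tbx5 had at most 41 counts in any library, and Acvr1c had 3 counts in castrated replicate 1 and 1 and 3 counts in intact replicates 1 and 2. For Mmp9 the most alike were Kcnk13 (0.14), the chemokine gene Ccl6 (0.17) and Fabp7 (0.21).

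Macrophage markers were also higher in castrated mice. Of 12 macrophage markers tested, 8 were higher in castrated mice at the unadjusted p and fold threshold and 0 were lower. The shares of all tested genes were 7.66% and 3.26%. In 10 markers the castrated values all lay above the intact values, as in 17.0% of all tested genes. The 12 markers summed to 2727, 7615 and 3103 CPM in castrated replicates 1, 2 and 3 and 1182 and 1755 CPM in intact replicates 1 and 2. Lyz2 (lysozyme) was the most abundant and none was at 0. Cd68, a lysosomal macrophage marker, had a log2 fold change of 2.52 ± 0.82 (SE), the scavenger receptor Cd163 of 2.24 ± 0.65 and Adgre1 (F4/80) of 1.85 ± 0.59. Of 8 markers of lipid-associated macrophages, 3 passed the unadjusted threshold (the cathepsin Ctsk, the lipid receptor Trem2 and the acid phosphatase Acp5), and their sum was 1222, 19903 and 6170 CPM in castrated and 1173 and 1326 CPM in intact replicates. Spp1, osteopontin, was the most abundant of these. Cd68 and Adgre1 had log2 fold changes of 1.66 and 1.33 without castrated replicate 2, and Cd163 of 3.04 without intact replicate 1. No marker in either list passed after adjustment over all genes in edgeR's quasi-likelihood test.

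Per length and set against those sums, the macrophage members gave unlike ratios. Mmp12 TPM equalled 1.98%, 25.5% and 19.6% of the summed macrophage marker TPM in castrated replicates 1, 2 and 3, and 2.60% and 3.79% in the intact replicates. Against the lipid-associated macrophage sum it was 6.46%, 16.7% and 17.1% in castrated and 3.73% and 7.92% in intact replicates. Mmp9 stood at 0.566%, 0.674% and 0.455% of the macrophage marker sum in castrated and 0.683% and 0.398% in intact replicates. Groups overlapped in all 3 ratios. How far the number of macrophages set the Mmp12 and Mmp9 values was not tested.

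**Figure D2:**
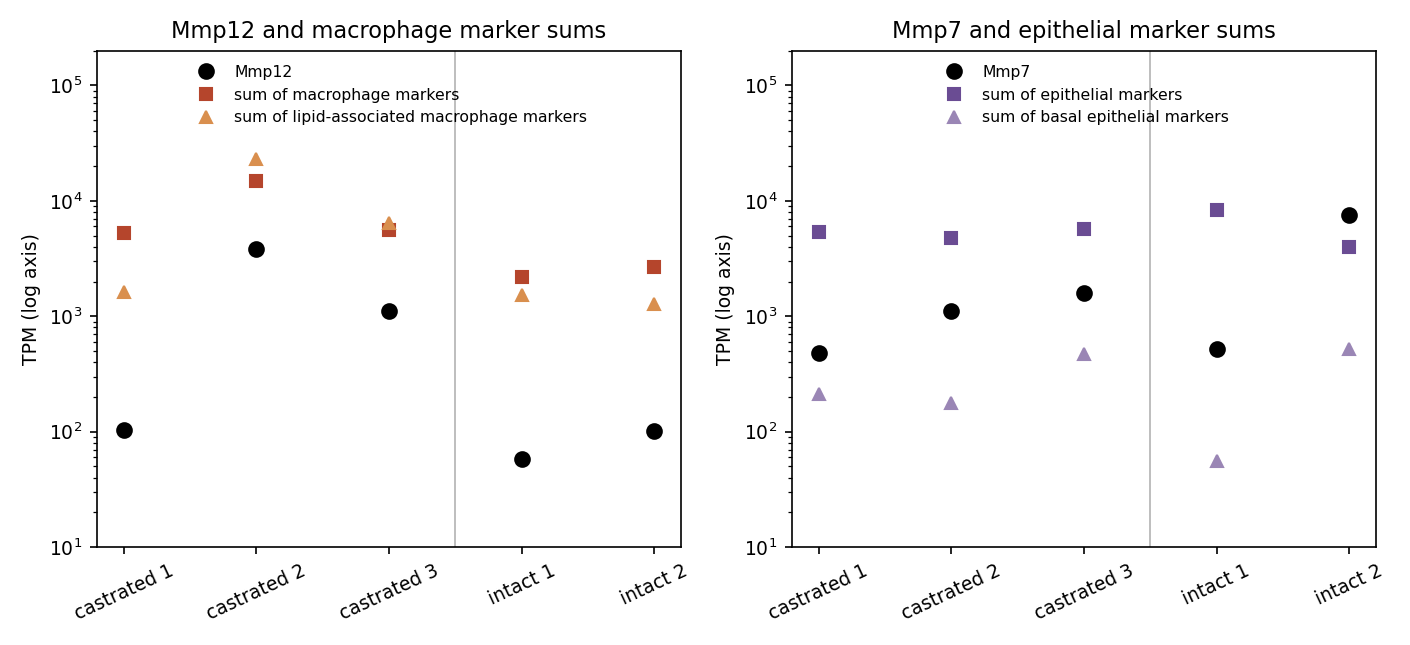
TPM (log axis) in each library of Mmp12 beside the summed macrophage and lipid-associated macrophage markers (left), and of Mmp7 beside the summed epithelial and basal epithelial markers (right), with castrated libraries left of the vertical line. Mmp12 came closest to the macrophage marker sum in castrated replicate 2, at 25.5% of it, and Mmp7 exceeded the epithelial marker sum only in intact replicate 2, at 190% of it.

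Among stromal members, Mmp19 and Mmp13 were those with the largest differences. Their class is the label given at the outset and was not read from these libraries. Both were highest in castrated replicate 2, as was the macrophage marker sum, at 7615 CPM. The fibroblast marker sum given below was highest in castrated replicate 3, at 6012 CPM. Which cells made Mmp19 and Mmp13 mRNA was not tested. Mmp19, which is made by fibroblasts, macrophages and vessel cells, stood at 31.9, 182 and 74.2 CPM in the castrated replicates and at 28.1 and 12.5 CPM in the intact replicates, with a log2 fold change of 2.24 ± 0.83 (SE; unadjusted p = 0.0409, adjusted p = 0.322). The groups did not overlap, although castrated replicate 1 exceeded intact replicate 1 by little, and the log2 fold change was 1.39 without castrated replicate 2 and 2.96 without intact replicate 1. Mmp13, the main interstitial collagenase of mice, stood at 21.5, 104 and 13.8 CPM in castrated and at 12.9 and 5.21 CPM in intact replicates. Castrated replicate 2 carried most of that difference, and the log2 fold change of 2.36 ± 1.05 (SE; unadjusted p = 0.0707, adjusted p = 0.361) was 0.97 without it and 3.17 without intact replicate 1. In their values over the 5 libraries, Mmp19 was most like the protease Adam8 (0.20), the lysosomal lipase Lipa (0.22) and Tmem178 (0.25), and Mmp13 was most like Ccl6 (0.37), Clec4d (0.42) and the macrophage complement receptor Vsig4 (0.43).

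Mmp11, stromelysin-3, known from the fibroblasts around carcinomas, stood at 19.1, 16.6 and 27.3 CPM in castrated and at 14.6 and 5.53 CPM in intact replicates. It did not overlap between groups, but castrated replicate 2 and intact replicate 1 were close, and the log2 fold change of 1.06 ± 0.51 (SE) had an unadjusted p of 0.087 in edgeR's quasi-likelihood test and was 0.48 without intact replicate 2 and 1.94 without intact replicate 1. Its nearest genes were Tgfb1i1 (0.07), which is induced by TGF-β, the collagen receptor subunit Itga11 (0.09) and Naalad2 (0.09).

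Mmp2, Mmp14 and Mmp3 overlapped between groups and had unadjusted p-values of 0.25, 0.876 and 0.271 in edgeR's quasi-likelihood test. Mmp2, gelatinase A, stood at 372, 252 and 287 CPM in castrated and at 292 and 134 CPM in intact replicates, a log2 fold change of 0.51 ± 0.39 (SE) that was 0.01 without intact replicate 2 and 1.20 without intact replicate 1. Mmp14, the membrane-anchored activator of pro-Mmp2, stood at 673, 546 and 388 CPM in castrated replicates, all between the 1002 and 163 CPM of intact replicates 1 and 2. Its log2 fold change of −0.12 ± 0.74 (SE) rested on which intact mouse it was set against, with 1.74 when intact replicate 1 was left out and −0.95 when intact replicate 2 was. Mmp3, stromelysin-1, which can activate Mmp9 and Mmp13, stood at 44.5, 59.1 and 22.0 CPM in castrated and at 32.8 and 24.2 CPM in intact replicates, with castrated replicate 3 the lowest of all and a log2 fold change of 0.55 ± 0.45 (SE). The genes nearest to Mmp2 were the actin-binding protein gene Cald1 (0.05), Fgd2 (0.07) and Egfl7 (0.09), those nearest to Mmp14 were Lpar2 (0.07), Slc29a4 (0.08) and Tecpr1 (0.10), and those nearest to Mmp3 were Muc13 (0.09), the myeloid receptor Trem1 (0.11) and Ms4a6d (0.15).

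**Figure D3:**
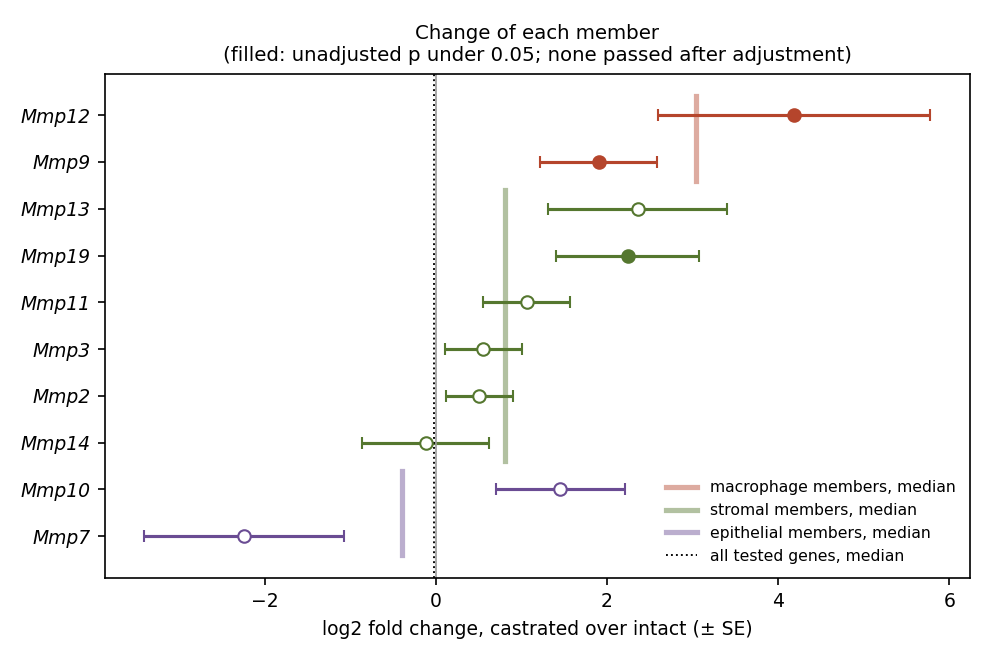
Log2 fold change of each member, castrated over intact, ± SE derived from edgeR's quasi-likelihood F statistic, colored by class, with thick bars for the class medians and a dotted line for the median of all tested genes. Filled points are the 3 members with an unadjusted p under 0.05, and Mmp7 is the member furthest below 0, at −2.24.

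Beside the stromal members, fibroblast and smooth muscle markers were higher in castrated mice. Of all tested genes, 7.66% passed the unadjusted threshold upward and 3.26% downward. Of 9 fibroblast markers, 7 passed the unadjusted threshold upward and 0 downward, with a median log2 fold change of 1.68, the most abundant being the collagen-binding proteoglycan Dcn (2.35 ± 0.69, SE), followed in size of change by Dpt (2.34 ± 0.86) and Lum (2.23 ± 0.58). Dpt was 1.58 without castrated replicate 3 and 3.35 without intact replicate 2. Their summed level was 2261, 4084 and 6012 CPM in castrated and 1043 and 942 CPM in intact replicates, with none at 0. Relative to the sum of these markers in TPM, Mmp2 stood at 12.7%, 4.54% and 3.49% in castrated and 22.5% and 10.7% in intact replicates, and Mmp14 at 18.6%, 7.95% and 3.81% against 62.2% and 10.5%. Mmp3 was the only stromal member whose castrated values, at 2.61%, 1.82% and 0.458%, all lay below its intact values of 4.31% and 3.30%, while Mmp11, Mmp13 and Mmp19 overlapped. The fibroblast sum itself was higher in every castrated library than in either intact library, and Mmp3 overlapped in CPM. The share of all tested genes that lie below in such a ratio is not given. The separation is therefore no result about Mmp3. Fap, a marker of activated fibroblasts, had a log2 fold change of −0.06 ± 0.60. All 6 smooth muscle markers, among them Myh11, Cnn1 and Des, passed the unadjusted threshold upward, and their summed level was 374, 670 and 605 CPM in castrated and 198 and 138 CPM in intact replicates, with Tagln the most abundant. The part of stromal cell numbers in these values was not tested.

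Mmp7, matrilysin, the smallest member, made by glandular epithelium and a known target of β-catenin, stood at 226, 519 and 759 CPM in castrated and at 235 and 4509 CPM in intact replicates. Intact replicate 2 lay far above the other 4 libraries, while intact replicate 1 fell at the lower end of the castrated values. The log2 fold change of −2.24 ± 1.17 (SE; unadjusted p = 0.109, adjusted p = 0.414 in edgeR's quasi-likelihood test) turned to 1.05 without intact replicate 2. Between the intact mice Mmp7 differed by 19.2-fold, more than the 3.37-fold between the highest and lowest castrated mouse. Mmp10, stromelysin-2, known from wound-edge epithelium and from macrophages, was the least abundant member, at 6.84, 4.56 and 1.66 CPM in castrated and 2.15 and 1.02 CPM in intact replicates, from 196, 85, 34, 48 and 22 counts. Castrated replicate 3 fell between the intact mice, and the log2 fold change was 1.45 ± 0.76 (SE; unadjusted p = 0.109), with 0.96 without castrated replicate 1 and 2.11 without intact replicate 1. Its values were most like those of Inka2 (0.20), the cell cycle inhibitor Cdkn1a (0.26) and the noncoding RNA Trp53cor1 (0.30), the last of which had at most 131 counts.

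The library with the high Mmp7 value was the one with the high Tgm4 count. The basal epithelial markers Krt5, Krt14 and Trp63 summed to 199, 171 and 478 CPM in castrated and to 49.3 and 645 CPM in intact replicates. General epithelial markers varied far less, with sums of 4129, 3816 and 4497 CPM in castrated and 6244 and 3874 CPM in intact replicates, 0 of 7 past the unadjusted threshold, and Krt18 the most abundant. Per length, Mmp7 TPM equalled 8.95%, 23.1% and 28.0% of the general epithelial marker TPM in castrated replicates and 6.26% and 190% in intact replicates. The 5 genes most like Mmp7 were Car2 (0.18), Nlrp10 (0.23), Catsperg1 (0.27), Fcamr (0.28) and 2010016I18Rik (0.29). Car2, a carbonic anhydrase, stood at 70.1, 125 and 210 CPM in castrated and at 51.1 and 1102 CPM in intact replicates. Mmp20, the enamelysin gene next to Mmp7 on chromosome 9, was also highest in intact replicate 2, with 12, 4 and 7 counts in castrated and 14 and 675 counts in intact replicates, and did not enter the test. The part of epithelial composition in the Mmp7 values was not tested.

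Per length, Mmp7, Mmp12, Mmp14 and Mmp2 made up most metalloproteinase mRNA, and the leading member changed from library to library. Mmp14 led in intact replicate 1 with 653 TPM, Mmp7 in castrated replicates 1 and 3 with 478 and 1588 TPM, Mmp12 in castrated replicate 2 with 3824 TPM, and Mmp7 in intact replicate 2 with 7542 TPM. Mmp7 held 96.0% of the summed TPM of the 10 members in intact replicate 2 and 33.1% in intact replicate 1, and Mmp12 held 64.9% in castrated replicate 2 and 7.24% in castrated replicate 1. The summed TPM of all members was 1442, 5888 and 3290 in castrated and 1580 and 7856 in intact replicates. Without Mmp7 and Mmp12 the sum was 860, 955 and 601 TPM in castrated and 1000 and 213 TPM in intact replicates, and the groups overlapped. Mmp10 was the lowest member in each library.

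**Figure D4:**
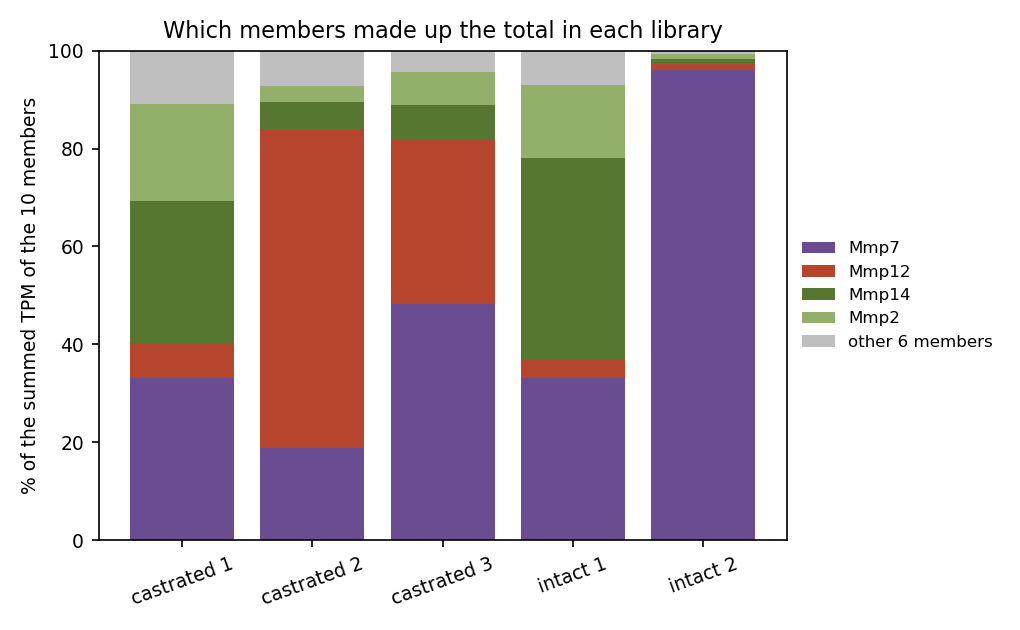
Share of the summed TPM of the 10 members (percent) held by Mmp7, Mmp12, Mmp14, Mmp2 and the remaining 6 members in each library. Mmp7 held 96.0% in intact replicate 2, whereas Mmp12 held 64.9% in castrated replicate 2.

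Of the 6 inhibitor genes, 1 passed the unadjusted threshold upward and 0 downward, beside 7.66% and 3.26% of all tested genes. The groups overlapped for the other 5 inhibitors. The 1 gene was Reck, a membrane-anchored inhibitor of Mmp2, Mmp9 and Mmp14, with 10.01, 21.7 and 36.7 CPM in castrated and 7.35 and 3.07 CPM in intact replicates (log2 fold change 2.13 ± 0.71, SE; 1.59 without intact replicate 2 and 2.91 without intact replicate 1). Timp2, the most abundant inhibitor, which also takes part in pro-Mmp2 activation, stood at 592, 1188 and 859 CPM in castrated and 805 and 314 CPM in intact replicates, and Timp1, the inhibitor best known for binding Mmp9, at 108, 46.3 and 22.8 CPM against 201 and 67.4 CPM. Members outweighed Timp1 to Timp4 in summed TPM by 1.71, 5.36 and 4.09 to 1 in castrated and by 1.12 and 20.7 to 1 in intact replicates.

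Among 13 other metalloproteinases, 9 were tested. Of these, 2 passed the unadjusted threshold upward, the membrane-anchored Mmp17 (log2 fold change 1.67 ± 0.53, SE) and Mmp23 (1.40 ± 0.35), and 0 passed downward. Of all tested genes, 7.66% passed upward and 3.26% downward. Mmp15, the most abundant, stood at 156, 247 and 321 CPM in castrated and 181 and 174 CPM in intact replicates. Mmp8, the neutrophil collagenase, stood at 12.2, 12.0 and 1.71 CPM in castrated and 15.7 and 3.39 CPM in intact replicates. Mmp1a and Mmp1b had 0 counts in all libraries, which allows up to 0.105 to 0.161 CPM for 3 counts in these libraries, and Mmp21 had 1 count in all. Of 8 neutrophil markers tested, Csf3r passed the unadjusted threshold (1.12 ± 0.42, SE; 0.78 without castrated replicate 2), and Ltf, the most abundant, which glandular epithelium also makes, stood at 148, 601 and 1060 CPM in castrated and 528 and 234 CPM in intact replicates. The neutrophil markers Mpo, Elane and Camp were too low to test.

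**Figure D5:**
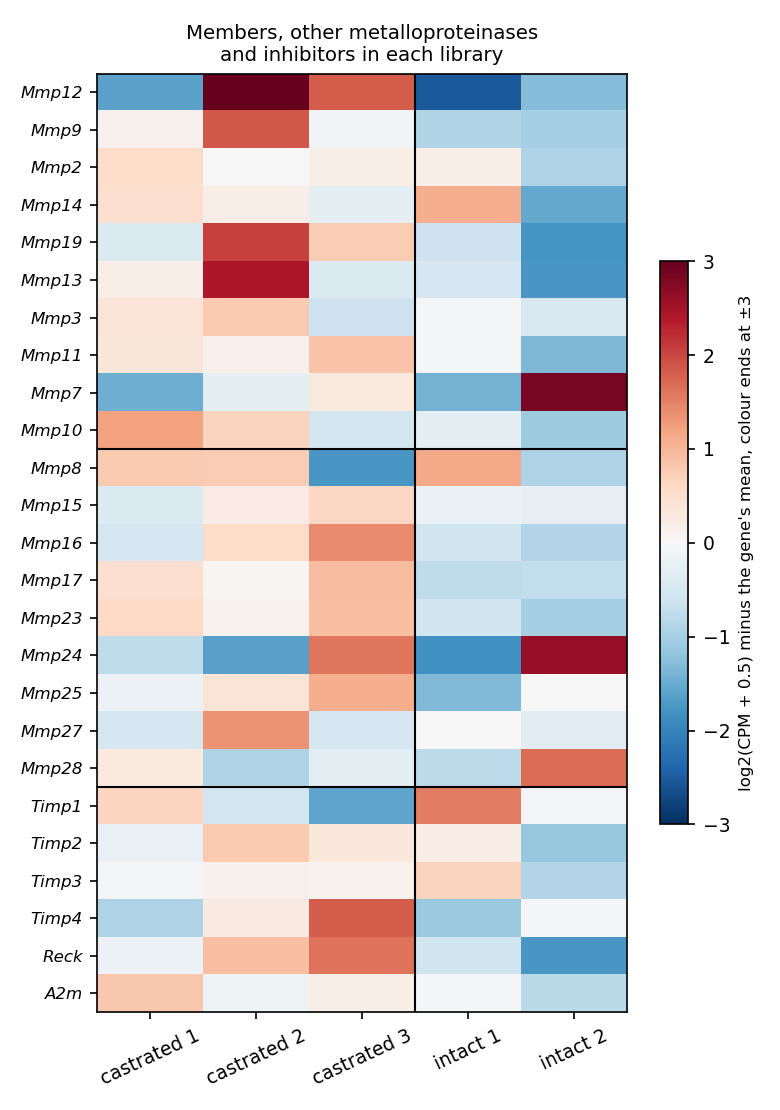
Heat map of log2(CPM + 0.5) minus the mean of each gene over the 5 libraries, for the 10 members (top), the 9 other metalloproteinases tested (middle) and 6 inhibitors (bottom), with castrated libraries left of the vertical line and colors ending at ±3. Mmp12, Mmp13, Mmp19 and Mmp9 are reddest in castrated replicate 2, while Mmp7 and Mmp24 are reddest in intact replicate 2.

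Activating proteases and matrix substrates of the members were read beside the same shares of all tested genes, 7.66% upward and 3.26% downward. Of 7 genes of the plasminogen system and furin that were tested, 0 passed the unadjusted threshold upward and 1 downward, the plasminogen activator inhibitor Serpinb2 (−1.63 ± 0.61, SE), which stayed at or below 2.23 CPM in the 5 libraries. Plat, tissue plasminogen activator and the most abundant, stood at 1406, 567 and 420 CPM in castrated and 2349 and 345 CPM in intact replicates. Plg, plasminogen itself, which the liver makes, had 6173 counts in castrated replicate 3 and at most 5 in any other library. Of 15 ADAM and ADAMTS proteases, 2 passed upward, the myeloid protease Adam8 (2.12 ± 0.77, and 1.24 without castrated replicate 2) and the aggrecanase Adamts5 (1.35 ± 0.26), and 0 passed downward, with Adam10 the most abundant. Of 7 matrix substrates, among them Col3a1, Fn1 and Eln, 0 passed in either direction, and their median log2 fold change was 0.01.

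Regulators known for these promoters were read next, beside the 7.66% of all tested genes past the unadjusted threshold upward and the 3.26% downward. Of the 12 AP-1 and ETS factor genes, 1 passed it upward, Etv1, an ETS factor, with 17.2, 26.5 and 27.8 CPM in castrated and 7.35 and 4.14 CPM in intact replicates (2.05 ± 0.42, SE), and Ets2 was the most abundant. Of the 7 AP-1 genes, Fos had a log2 fold change of 0.26 ± 0.41, Jun of 0.60 ± 0.35 and Fosl1 of −1.48 ± 1.19. Of the 9 β-catenin feedback targets, Lgr5 passed downward (−1.46 ± 0.45, SE; −0.82 without intact replicate 2) and 0 passed upward, the median log2 fold change was −0.73, and Nkd1 was the most abundant. Axin2, another of these, stood at 342, 144 and 122 CPM in castrated and 333 and 586 CPM in intact replicates. Of 5 inducing cytokines tested, 0 passed, with Tgfb1 the most abundant, and Il1b stood at 17.2, 57.0 and 19.3 CPM in castrated and 9.63 and 22.8 CPM in intact replicates.

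Other cell types that the tissue could hold were read from their markers, beside the same 7.66% upward and 3.26% downward of all tested genes. All 4 mast cell markers (Cpa3, Kit, Mcpt4 and Tpsb2) passed the unadjusted threshold upward, Mcpt4 with 14.8, 22.3 and 49.4 CPM in castrated and 0.224 and 1.25 CPM in intact replicates, and the list summed to 145, 137 and 218 CPM in castrated and 40.2 and 18.6 CPM in intact replicates, with Tpsb2 the most abundant. Of 6 adipocyte markers, 4 passed (Adipoq, Plin1, Cidec and Retn), and the list summed to 14.8, 224 and 245 CPM in castrated and 9.86 and 38.5 CPM in intact replicates, with Adipoq the most abundant and Lep at 0 in castrated replicate 1 and both intact replicates. Of 4 endothelial markers, Tek passed (1.36 ± 0.41, SE), and the list summed to 287, 205 and 240 CPM in castrated and 336 and 118 CPM in intact replicates, with Cdh5 the most abundant. Of 4 T cell markers, 0 passed, with sums of 9.74 to 32.1 CPM in castrated and 2.64 and 24.96 CPM in intact replicates, Cd4 being the most abundant. The liver genes summed to 57.0, 2.68 and 18405 CPM in castrated and 13.4 and 4.74 CPM in intact replicates. In castrated replicate 3, Mmp7 and Mmp11 had their highest castrated value, Mmp3, Mmp9, Mmp10, Mmp13 and Mmp14 their lowest, and Mmp2, Mmp12 and Mmp19 lay between. The part of these cells in the values of the members was not tested.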

How the data were processed

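Bulk RNA-seq libraries of 5 mice, 3 castrated and 2 intact, were analyzed. Per the labels and methods, the authors used Trimmomatic 0.39 on paired-end reads, aligned to mm10 by STAR 2.7.9 and deposited raw counts per gene from HTSeq 2.0.2; the strand setting is not stated, so overlapping genes are uncertain. TPM used the deposited gene length. With R 4.3.3, the 14612 genes exceeding a CPM of 1 in 2 or more libraries were tested in edgeR 4.0.16 (trimmed mean of M-values, TMM; quasi-likelihood F-test, Benjamini-Hochberg adjustment). The procedure was tested on simulated data. No 2 libraries of a group were alike within sampling noise. P-values set the difference between groups against the spread between libraries of separate animals. That spread includes the differences in liver, adipocyte and secretory mRNA given above.

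Members and gene lists were chosen with earlier results of these data known. Named from each list were the most abundant gene by TPM and up to 3 genes in each direction with the largest change among those past an unadjusted p of 0.05, an absolute log2 fold change of 1 and groups that did not overlap; from the members, the 3 or, for Mmp12 and Mmp7, 5 most alike genes (log2 CPM, prior count 2). Other genes given values were chosen after these were seen. Ratios to marker sums, planned in CPM, are given in TPM, chosen after seeing the data; the groups overlapped or not alike on both scales. Alternatives were DESeq2 1.42.0, the likelihood ratio test, limma 3.58.1 voom, other scalings and filters, a replicate block and leaving out each library. Promoters are RefSeq sequences. The list of prostate identity and secretory markers is not reported here as a sum.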

Additional observations from a re-analysis of the deposited data

How the results depend on the processing

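The member with the fewest counts was Mmp10, with 22 to 196 per library. Over 16 alternatives, 8 members kept their direction in each, all but Mmp7 and Mmp14. The number of genes called, 0 in edgeR's quasi-likelihood test (1596 at the unadjusted p and fold threshold), was 989 in DESeq2, with Mmp12 as 1 member called, 369 in the likelihood ratio test, and 0 to 1 when 1 library was left out; at the unadjusted threshold it was 867 to 2570 when 1 library was left out, with the lowest value without castrated replicate 3 and 893 without castrated replicate 2. The 3 members past the unadjusted threshold became 5 in DESeq2, 5 in the likelihood ratio test, 1 in limma voom, and 0 to 4 with 1 library left out, 0 being without intact replicate 2, 1 without castrated replicate 2 and 4 without intact replicate 1. Over all tested genes, 2071 passed that threshold in DESeq2, 1959 in the likelihood ratio test and 1108 in limma voom, beside 1596 in edgeR's quasi-likelihood test. Members whose castrated values all lay above numbered 4 to 7 when 1 library was left out, 7 being without intact replicate 1. Those all below numbered 0 to 1. A gene separates more easily with fewer libraries, and the share of all tested genes in these subsets is not given. These counts are therefore no result about the members. Median log2 fold changes when 1 library was left out were 0.40 to 1.84 for stromal members, −0.52 to 1.01 for epithelial members and 1.88 to 3.46 for macrophage members. Mmp7 turned to 1.05 without intact replicate 2, its range over left-out libraries being −3.15 to 1.05. Mmp14 turned to 0.37 in limma voom, 0.58 with the replicate block and −0.95 to 1.74 with 1 library left out, 0.07 without castrated replicate 3. With a prior count of 0.5, 3 of the 5 genes most like Mmp12 were retained.

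Same-numbered castrated and intact replicates are different animals. Their deviations from the group means correlated at 0.15 for replicate 1 and −0.05 for replicate 2. By a chi-square per gene, castrated replicate 1 was nearer to intact replicate 1 (141.7) than to castrated replicates 2 and 3 (240.5 and 268.9). The intact replicates differed from each other by 353.3. Whether same-numbered libraries share more than a number was not tested. With the replicate block, 975 genes and 2 members passed the unadjusted threshold and 0 genes were called. The cause of these changes was not tested.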
